A study of Arabidopsis thaliana with 3 samples.

Results

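A set of 5 genes of Arabidopsis thaliana that act when sperm meet the female gametes was followed in the deposited sperm transcriptome. They are HAP2 (AT4G11720), GEX1 (AT5G55490), GEX2 (AT5G49150), DMP8 (AT1G09157) and DMP9 (AT5G39650). They were taken by locus identifier with no threshold on level, though with earlier results of these data known. All 5 were found, among 33602 listed transcripts with 1 transcript per locus. The study used Smart-seq2, which copies polyadenylated RNA of few cells along its full length, on sperm cells of wild-type Col-0 plants isolated by fluorescence-activated sorting. The labels describe 3 sperm libraries, with no word on whether these came from separate plants or sorts. The table holds 1 value per transcript for sperm, the authors' mean in TPM, a share of all transcripts that is corrected for length and scaled to a total of 1000000. So no level below has an SD and no difference was tested between libraries.

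A pollen grain delivers a pair of sperm through the pollen tube. One fuses with the egg cell and the other with the central cell of the ovule, first at the plasma membrane and then at the nucleus. HAP2, also called GCS1, is the fusogen, a sperm membrane protein that merges the plasma membranes. GEX2 is a sperm surface protein by which the gametes adhere before they fuse. DMP8 and DMP9 are related membrane proteins of sperm that are needed with HAP2 for gamete fusion. GEX1 acts later, as a nuclear envelope protein needed for the fusion of nuclei.

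The 5 genes lay at very unequal levels in sperm, with GEX1 and DMP9 far above the other 3. GEX1 was at 1670 TPM, rank 59 of the 33602 transcripts. DMP9 was at 1342 TPM, rank 67. HAP2 followed at 87.9 TPM, rank 861, then GEX2 at 71.8 TPM, rank 984, and DMP8 was lowest at 36.5 TPM, rank 1547. Together they summed to 3208 TPM, or 0.321% of the total, and GEX1 and DMP9 supplied 93.9% of that sum. The fusogen gene HAP2 supplied 2.74% of it. In a bulk preparation, a level set by fewer cells of a type and one set by less RNA per cell cannot be told apart.

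**Figure D1:**
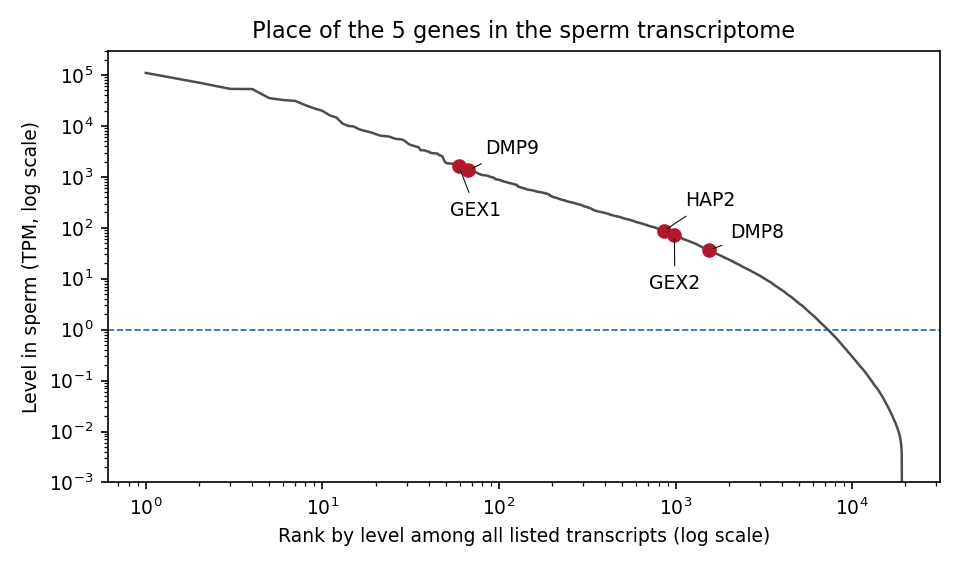
Level of each transcript above 0 TPM in sperm (vertical axis, TPM, log scale) against its rank among all listed transcripts (horizontal axis, log scale), with the 5 genes as red points and a dashed line at 1 TPM. GEX1 and DMP9 lie at ranks 59 and 67, and HAP2, GEX2 and DMP8 lie between ranks 861 and 1547.

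All 5 genes were at or above 1 TPM, a level reached by 21.7% of all listed transcripts. At or above 100 TPM stood 2 of the 5, GEX1 and DMP9, against 2.29% of all transcripts. The median of the 5 was 87.9 TPM, beside 0.021 TPM over all transcripts and 0.352 TPM over those above 0. Even DMP8 was higher than 95.4% of listed transcripts, and GEX1 was higher than 99.8%.

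The printed digits of a mean limit what the single libraries can have been. Multiplied by 3, all 75 means from 1000 to 10000 TPM ended within 4 decimals, against 38.7% of them after multiplication by 1, 2 or 4, as means of 3 numbers with 6 significant digits would. A library then leaves more decimals in the sum the lower its value is. For GEX1 the sum, 5009.94 TPM, had 2 decimals, so the digits show no library under 1000 TPM. Each library would then lie from 1000 to 3010 TPM. For DMP9 the sum, 4025.27 TPM, also had 2 decimals, which would place each library from 1000 to 2025 TPM. This check cannot see a library at exactly 0, nor a value that happens to end in 0. It also misses last digits of different libraries that cancel in the sum, so the limits are not firm.

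For the lower 3 genes the sum had 4 decimals and the digits show no library under 10 TPM. The limits per library were then 10 to 243.6 TPM for HAP2, 10 to 195.3 TPM for GEX2 and 10 to 89.4 TPM for DMP8. No library of HAP2 can have passed the whole sum, 263.6 TPM. Read this way, the limits of GEX1 and DMP9 do not overlap those of HAP2, GEX2 or DMP8. Within each of these sets they do, so the order of GEX1 and DMP9, and of HAP2, GEX2 and DMP8, is that of the means only. The limits of GEX2 are those of its listed value, and reads it may share with an overlapping locus, described below, were not considered. Of the 75 means from 1000 to 10000 TPM, 69 showed no library under 1000 TPM, so GEX1 and DMP9 were like most transcripts of their level in this.

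**Figure D2:**
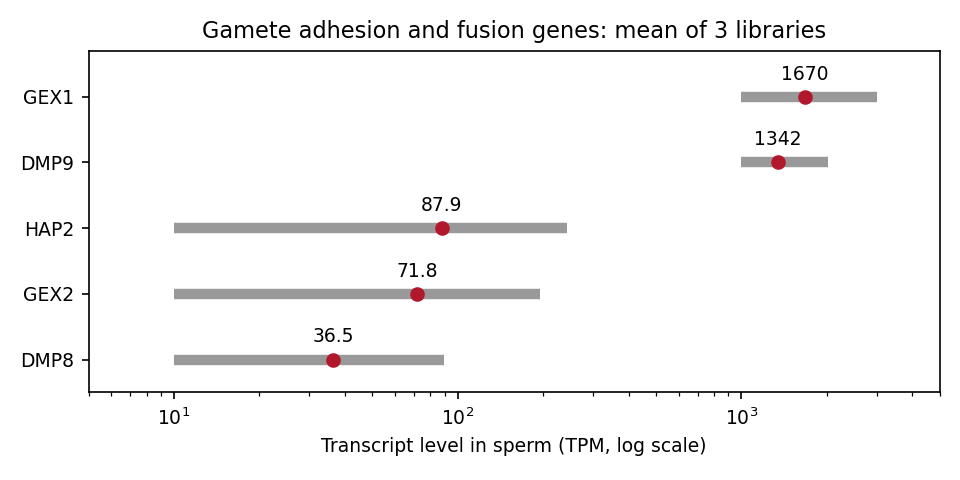
Level of each gene in sperm (horizontal axis, TPM, log scale), with the authors' mean of 3 libraries as a red point and its value above it. Grey bars are the limits for a single library read from the digits of the mean, not an SD; the bars of GEX1 and DMP9 start at 1000 TPM, to the right of all 3 others.

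At the stage of adhesion and membrane fusion, HAP2 and GEX2 stood close together. HAP2 was 1.22 times GEX2, which is 0.29 as a log2 ratio with 1 TPM added on both sides. The level of GEX2 carries a doubt that the others do not. In the TAIR10.1 reference table the long noncoding RNA locus AT5G49152 spans the whole of GEX2, and it was listed at 517.9 TPM, rank 163, or 7.22 times GEX2. Smart-seq2 does not mark the strand of a read, so reads from the stretch that both loci cover cannot be told apart by strand, and how they were divided was not tested. The 2 loci summed to 589.6 TPM, of which GEX2 was given 12.2%. Set against that sum, HAP2 was the lower of the pair, at a log2 ratio of -2.73. None of the other 4 genes was overlapped in that table by another listed locus, while 21.8% of the 32835 listed loci found there were.

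Of the paralogs, DMP9 was 36.8 times DMP8, a log2 ratio of 5.16. Their sum, 1378 TPM, was far above that of HAP2 and GEX2, 159.6 TPM, at a log2 ratio of -3.10 for HAP2 and GEX2 against the DMP genes, or -1.02 with AT5G49152 counted to GEX2. If DMP8 and DMP9 share stretches of sequence, the estimation step divided those reads between them, which was not tested. The sum of both is free of that division.

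In the whole DMP family of 10 membrane protein genes, DMP8 and DMP9 were the 2 that reached 1 TPM, beside 21.7% of all transcripts. They held 99.97% of the family's 1379 TPM. DMP9 alone held 97.3% and DMP8 held 2.64%. Of the other 8 genes, DMP1, DMP3, DMP4 and DMP10 were listed at 0, as were 43.1% of all transcripts. DMP6 was at 0.191 TPM, DMP5 at 0.160 TPM, DMP7 at 0.067 TPM and DMP2 at 0.021 TPM, and the 8 together summed to 0.439 TPM. The family median was 0.044 TPM.

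GEX1, the nuclear fusion gene, was 19.0 times HAP2, a log2 ratio of 4.23. It was set beside 12 genes of the endoplasmic reticulum and nuclear envelope, among them the BiP chaperones, which in Arabidopsis act in fusion of the polar nuclei, and SUN domain proteins of the inner nuclear membrane. Of these 13 genes with GEX1, 7 were at or above 1 TPM, beside 21.7% of all transcripts, and the median was 1.38 TPM. SUN1 was next after GEX1, at 429.5 TPM, and the J-domain cochaperone gene ERDJ3A was at 114.7 TPM. SUN2 was at 34.7 TPM, while SUN4 and SUN3 were at 1.99 TPM and 1.38 TPM. The BiP genes were low, with BIP2 at 1.52 TPM, BIP3 at 0.321 TPM and BIP1 at 0.057 TPM. The lowest were SDF2, an endoplasmic reticulum protein gene, at 0.014 TPM and BIP1. SUN5 was at 0.086 TPM, the cochaperone gene P58IPK at 0.105 TPM and ERDJ3B at 0.499 TPM.

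Other genes for the gamete surface and for fertilisation had listed levels between those of the upper and lower genes. TET12, a tetraspanin of the sperm membrane, was at 547.4 TPM, and GEX3, a gamete-expressed membrane protein gene, was at 309.1 TPM. TET11, a second sperm tetraspanin, was at 195.0 TPM. KPL, a sperm gene needed for full fertilisation, was at 145.7 TPM. All 4 were thus above HAP2, GEX2 and DMP8 and below DMP9 and GEX1 as listed. With AT5G49152 counted to GEX2, at 589.6 TPM, GEX2 would lie above all 4.

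As markers of sperm, HTR10, DUO1, DAZ3, PCR11 and TIP5;1 were looked at within a list of 8 germline genes. All 8 were at or above 1 TPM, beside 21.7% of all transcripts. That level was also reached by 8 of 10 markers of the vegetative cell of pollen, given below. So this count cannot tell sperm RNA from RNA of that cell. The MYB factor gene DUO1, which switches on many male germline genes, was at 82.3 TPM, near the level of HAP2, which was 1.07 times as high. GEX1 was 20.3 times DUO1, DMP9 16.3 times, GEX2 0.871 times and DMP8 0.443 times. HTR10, the male gamete histone H3, was 2.84 times GEX1 and 54.1 times HAP2. The highest of the 8 were PCR11 at 16145 TPM, DAZ3 at 11141 TPM and TIP5;1 at 9815 TPM, and the lowest were DAZ2 at 39.4 TPM and DUO3 at 5.77 TPM.

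Genes of the egg cell, the partner of sperm in fusion, were listed at or near 0 here. Of 7 genes, 6 were listed at 0, beside 43.1% of all transcripts. These were the endopeptidase genes ECS1 and ECS2 and all but EC1.5 of the 5 EC1 genes. The egg cell releases the secreted peptides of the EC1 genes when sperm arrive. EC1.5 was at 0.287 TPM.

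Markers of the vegetative cell, which encloses the sperm, grows the pollen tube and is not the cell the sort selects, had listed levels that overlapped those of the lower 3 genes. Of 10 vegetative genes 8 were at or above 1 TPM, beside 21.7% of all transcripts. The 10 ran from 0.027 TPM for TIP1;3 to 343.0 TPM for LAT52, with a median of 34.9 TPM and a sum of 706.4 TPM. AGP6 was at 127.3 TPM and AGP11, another arabinogalactan protein gene, at 83.0 TPM, close to HAP2. The sugar transporter gene VEX1 was at 0.035 TPM. None of the 10 reached DMP9 or GEX1. Whether RNA of the vegetative cell contributed to the values of HAP2, GEX2 or DMP8 was not tested.

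**Figure D3:**
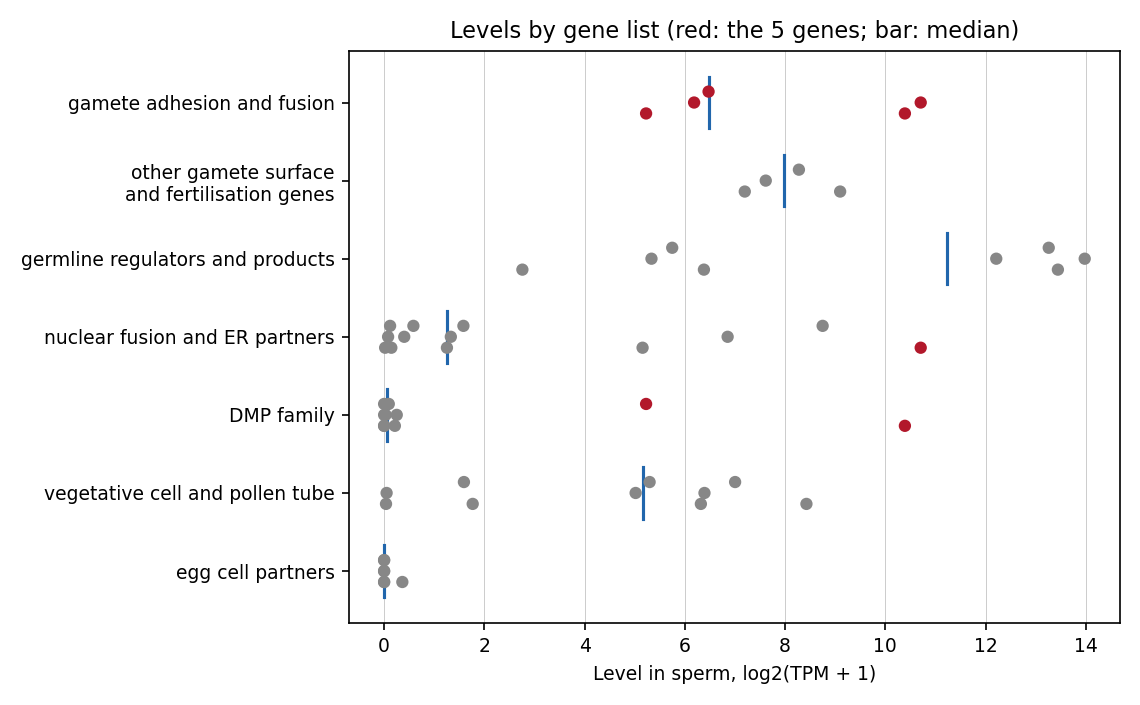
Level in sperm, as log2(TPM + 1) (horizontal axis), of every gene in each list, with the 5 genes in red wherever a list holds them and the list median as a blue bar. All but DMP8 and DMP9 of the DMP family lie near 0, the egg cell genes lie at or near 0 (6 of the points coincide at 0), and the vegetative genes spread over the range of HAP2, GEX2 and DMP8.

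The transcripts nearest in level, among those with a symbol in the reference table, had varied functions, and the likeness is that of 1 column only. GEX1 lay between ACD11, a sphingolipid transfer protein gene, at 1812 TPM and PAB2, a poly(A)-binding protein gene, at 1528 TPM. DMP9 lay between BPM2 at 1421 TPM and ORTHL at 1330 TPM. HAP2 lay between PI4K GAMMA 1 at 88.1 TPM and the deubiquitinase gene AMSH1 at 87.7 TPM. GEX2 lay between ALF5 at 72.6 TPM and XPO1B, a nuclear exportin gene, at 71.6 TPM. DMP8 lay between AGD15 and HDR, an enzyme gene of plastid isoprenoid synthesis, which were at 36.5 TPM and 36.4 TPM.

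The genes next to the 5 on their chromosomes were at varied levels. Of the 50 nearest listed loci, 5 on each side of each gene in the reference order, 16 reached 1 TPM, beside 21.7% of all transcripts, and 13 had a listed value of 0, beside 43.1% of all transcripts. These loci were looked at after the main levels were known. Beside DMP9 the next gene, CDF2, a flowering-time transcription factor gene, was the 1 locus of 10 above 1 TPM, at 36.5 TPM. Beside GEX1 the highest of 10 was AT5G55507 at 11.7 TPM, and its direct neighbours SVL1 and XYLT were at 0.023 TPM and 0.467 TPM. Around HAP2 none of the 10 passed 6.51 TPM. GEX2 differed in having a locus listed at a higher level on the same stretch, AT5G49152. It also lay next to MET1, the maintenance DNA methyltransferase gene, at 106.7 TPM. DMP8, the lowest of the 5, had 6 of 10 neighbours at or above 1 TPM, and of these AT1G09150 at 71.5 TPM and the splicing factor gene SR30 at 283.4 TPM were above DMP8 itself.

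**Figure D4:**
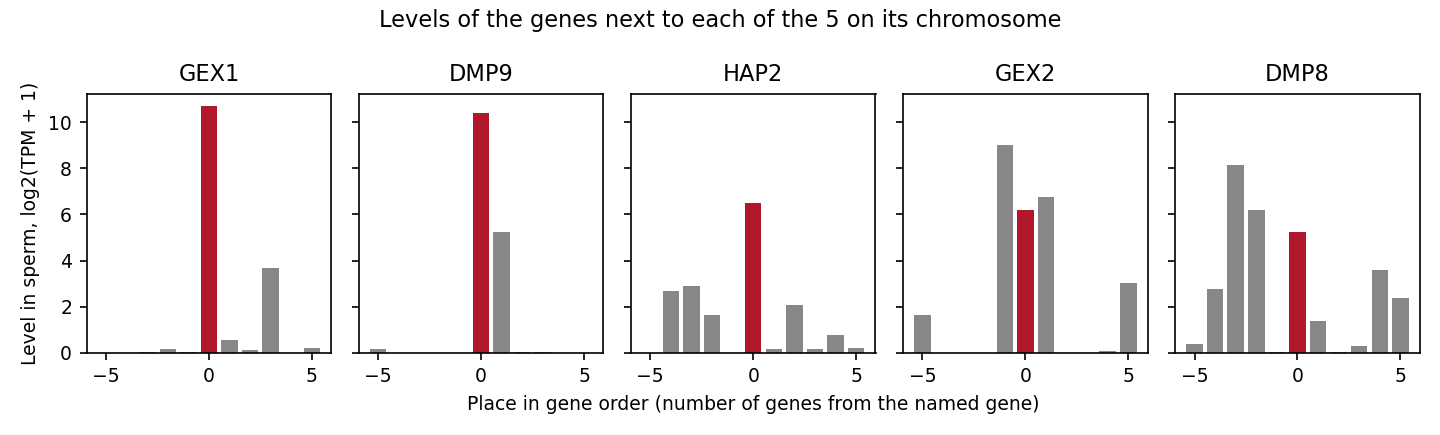
Level in sperm, as log2(TPM + 1) (vertical axis), of each of the 5 genes (red) and of the 5 listed loci on either side of it in the reference gene order (grey), by place from the named gene (horizontal axis). GEX1, DMP9 and HAP2 stand above all their neighbours, while GEX2 and DMP8 each have neighbours that are higher.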

How the data were processed

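RNA-seq values of sorted sperm cells were taken from 1 deposited column of TPM, in which the authors corrected estimated reads for transcript length and scaled to a total of 1000000. Its digits are those of a mean over libraries. Per the submitters' processing notes the tools were kallisto 0.43.1, STAR 2.5.2a, Trim Galore 0.4.1, bedtools and SAMtools and the build was TAIR10, with no role or order. The transcript annotation and any filters are not stated there. The other 13 value columns name tissues outside the samples described and were not used. TPM keeps no read counts, so depth and counting error are unknown, and a value of 0 is given as listed at 0.

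Members and gene lists were chosen with earlier results of these data known. Named were all members, the 3 highest and 2 lowest genes of each list and the nearest symbols in level. Further list genes, AT5G49152 and neighbours on the chromosome were named after their values were seen. Names, gene order and overlaps, but no coordinates, came from RefSeq's TAIR10.1 table, where 32835 of 33602 loci were found. In that table GEX1 has 9 transcripts and GEX2 has 8, of which 1 each is listed here, and the other 3 genes have 1. Of 54 distinct list genes, those without a symbol there, DMP8 among them, rest on the locus identifier. So do those with another name there, such as DMP9, whose symbol there is DAU2. Ratios are differences of log2(TPM + 1). Python 3.11.15, pandas 2.3.3 and NumPy 2.4.6 were used.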

Additional observations from a re-analysis of the deposited data

How the results depend on the processing

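No setting could show the spread between libraries, since the column holds means, and no depth is known. With no replicates, a value was taken as kept if it stayed within 1.5 times. The 4 log2 ratios with 0.1 TPM added stayed so, but the lowest gene in them was at 36.5 TPM, where the added amount changes little. Leaving out organellar transcripts multiplied levels by only 1.0029. The DMP8 and DMP9 share among family members at or above 1 TPM is 100% by construction. None of these settings says how firm a value is. Among transcripts above 0 TPM alone, which are fewer by construction, the share lying above each gene rose from 2.56% to 4.50% for HAP2, 0.173% to 0.303% for GEX1, 2.93% to 5.14% for GEX2, 4.60% to 8.08% for DMP8 and 0.196% to 0.345% for DMP9, and among protein-coding loci these shares stayed within 1.5 times. Rescaling without the 10 most abundant transcripts multiplied each level by 1.83, by construction, to 3058 TPM for GEX1, 2457 TPM for DMP9, 160.9 TPM for HAP2, 131.4 TPM for GEX2 and 66.8 TPM for DMP8. Counting AT5G49152 to GEX2, a setting chosen after seeing the data, gave 589.6 TPM for GEX2, reversed its log2 ratio with HAP2 from 0.29 to -2.73 and moved that of HAP2 and GEX2 to DMP8 and DMP9 to -1.02. At 5 TPM, 4 in place of 7 nuclear fusion and endoplasmic reticulum genes and 4278 in place of 7281 of all transcripts passed. Over transcripts above 0 TPM the median became 0.176 TPM for the DMP family, 0.287 TPM for the egg cell list, with 1 gene left, and 0.352 TPM for all. Leaving out replicates, promoter motifs and protein identity were not run, for want of values per library and of sequences. No paired analysis was possible because there is 1 group.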
